A study of Mus musculus with 44 samples.

Results

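The chromatin contacts described here are those of the restriction fragments that lie within 50 kb of 5 bait fragments in mouse liver and kidney, measured by circular chromosome conformation capture with sequencing (4C-seq). Every listed fragment whose distance from its bait was at most 50 kb was taken, whatever its signal, which gave 672 of the 30070 fragments listed within 2 Mb of the baits. The 672 entries cover 558 distinct regions, because the windows of the Slc45a3short and Slc45a3long baits overlap. Another 2236 entries lie between 50 and 200 kb from their bait and 27162 beyond 200 kb.

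The study measured RNA around the day in kidneys of wild-type and Bmal -/- mice, which lack a core clock transcription factor, and contacts at the start sites of 4 genes in liver and kidney. The 20 4C-seq libraries came from wild-type C57BL/6 mice of 8 to 12 weeks fed ad libitum, with 2 libraries for each bait and tissue. Kidney RNA values were taken from 12 wild-type libraries of 129SV mice of the same age under night-restricted feeding. All 4C-seq tissue was taken at zeitgeber time 20 (hours after lights on) except that of the Pi3kap1 bait, taken at zeitgeber time 8, so a comparison of that bait with the others also compares times. The protocol names individual animals as the source of the tissue, but the labels give each library a pair of letters without saying whether it pools animals. No allele, transgene or agent distinguished the groups. The deposited tables hold 1 value per fragment and tissue, in which the 2 libraries of a tissue are already combined, so the spread between libraries cannot be recovered and no test of liver against kidney was possible. Read depth is not given either, so no counting interval was computed.

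In 4C-seq, crosslinked chromatin is cut and ligated so that DNA that lay near the bait in the nucleus becomes joined to it, and sequencing from the bait counts its partners. Contact frequency falls steeply with distance along the chromosome in any tissue, and promoter contacts with nearby regulatory DNA, or with the body of the transcribed gene, appear as shoulders and peaks on that decay. Such contacts can differ between tissues that use different enhancers for the same gene, which is the question that a comparison of liver with kidney addresses.

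The baits sit at or near start sites of 4 genes. Mreg encodes melanoregulin, a protein of lysosome-related organelles. Pik3ap1, spelled Pi3kap1 in the labels, encodes an adaptor that couples receptors to phosphoinositide 3-kinase. Slc44a1 encodes a choline transporter, and Slc45a3 a transporter-like membrane protein that is read from alternative start sites. The tables give only distances, which were matched to the cut sites of the mouse genome GRCm38. All fragments of every bait matched at a single origin, against at most 15 at the next best origin. The Mreg bait fragment spans chr1:72212134-72213189, with its midpoint 353 bp from the annotated start of Mreg (chr1:72159442-72212307, minus strand). The Pi3kap1 bait fragment spans chr19:41383980-41385555, 330 bp from the start of transcript Pik3ap1-201 (gene at chr19:41272377-41385102, minus strand). The Slc44a1 bait fragment spans chr4:53439321-53441107, 200 bp from the gene's start (chr4:53440413-53622478, plus strand). For Slc45a3 (chr1:131962967-131982969, plus strand) the long bait fragment spans chr1:131962568-131963308, 30 bp from the start of Slc45a3-202, and the short bait fragment spans chr1:131970888-131971876, 772 bp from the start of Slc45a3-201. The Slc45a3 baits are 8444 bp apart. The sides are named below by coordinate: the lower side holds the gene body of Mreg and Pik3ap1 and the region upstream of Slc44a1 and Slc45a3, and the higher side the reverse. The short Slc45a3 bait lies inside the gene, so its lower side also holds the part of Slc45a3 between the start sites.

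For each bait fragment the end that comes first in the direction of transcription is shown for identification, 100 bases each, plus strand of GRCm38, 5′ to 3′. Capitals mark the cut site GATC, to which the listed fragment ends were matched, and the tetramer CATG.
Mreg bait, upstream end, chr1:72213090-72213189: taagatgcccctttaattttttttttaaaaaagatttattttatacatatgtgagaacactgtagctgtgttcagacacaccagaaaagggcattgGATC
Pi3kap1 bait, upstream end, chr19:41385456-41385555: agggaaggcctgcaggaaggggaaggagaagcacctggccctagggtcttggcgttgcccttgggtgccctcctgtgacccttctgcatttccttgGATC
Slc44a1 bait, upstream end, chr4:53439321-53439420: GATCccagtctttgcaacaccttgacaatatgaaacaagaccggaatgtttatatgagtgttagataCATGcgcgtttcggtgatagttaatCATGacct
Slc45a3short bait, upstream end, chr1:131970888-131970987: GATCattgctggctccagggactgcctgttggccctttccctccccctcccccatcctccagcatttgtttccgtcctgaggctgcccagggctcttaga
Slc45a3long bait, upstream end, chr1:131962568-131962667: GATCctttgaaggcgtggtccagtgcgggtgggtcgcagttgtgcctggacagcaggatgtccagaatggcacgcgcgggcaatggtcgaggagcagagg

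Every listed fragment held at least 1 CATG between its GATC ends. This was so for all 672 near the baits and for all 30070 within 2 Mb. Of the 1146 GATC fragments in the 5 windows, 672 (58.6%) were listed. Of the 474 that were not listed, 86 (18.1%) held a CATG, and 57 of these lay in the gap next to a bait. Listed fragments had a median length of 407 to 491 bp per bait, against 125 to 162 bp for those not listed. The tables show nothing right at the baits, and why the fragments there are not listed is not given. The nearest listed fragments lay at -3.49 and 7.73 kb for Mreg, -6.87 and 4.93 kb for Pi3kap1, and -4.59 and 5.13 kb for Slc44a1. For Slc45a3short they lay at -4.07 and 4.16 kb, and for Slc45a3long at -3.56 and 5.04 kb.

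The results below turn on 7 fragments, which had the highest liver minus kidney difference on their side of the bait. They are shown as the first 300 bases in plus-strand order, or whole with both cut sites for Slc44a1, with the same capitals. Each lies outside annotated exons. The Mreg and Pi3kap1 lower fragments are intronic in their own genes, the Slc45a3short higher fragment is intronic in the transcript Gm29103, and the other 4 overlap no annotated gene.
Mreg lower, chr1:72170640-72170939: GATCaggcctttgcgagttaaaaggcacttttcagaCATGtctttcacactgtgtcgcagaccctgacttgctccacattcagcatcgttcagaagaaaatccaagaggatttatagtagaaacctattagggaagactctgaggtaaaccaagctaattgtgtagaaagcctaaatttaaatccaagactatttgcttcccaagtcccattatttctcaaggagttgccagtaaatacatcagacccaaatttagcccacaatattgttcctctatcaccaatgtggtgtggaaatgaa
Pi3kap1 lower, chr19:41346650-41346949: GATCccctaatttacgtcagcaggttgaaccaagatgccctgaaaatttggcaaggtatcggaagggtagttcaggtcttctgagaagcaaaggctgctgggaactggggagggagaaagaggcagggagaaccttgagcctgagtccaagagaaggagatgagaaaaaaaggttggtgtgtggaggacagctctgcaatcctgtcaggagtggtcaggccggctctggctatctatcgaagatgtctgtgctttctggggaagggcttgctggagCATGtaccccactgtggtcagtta
Pi3kap1 higher, chr19:41418122-41418421: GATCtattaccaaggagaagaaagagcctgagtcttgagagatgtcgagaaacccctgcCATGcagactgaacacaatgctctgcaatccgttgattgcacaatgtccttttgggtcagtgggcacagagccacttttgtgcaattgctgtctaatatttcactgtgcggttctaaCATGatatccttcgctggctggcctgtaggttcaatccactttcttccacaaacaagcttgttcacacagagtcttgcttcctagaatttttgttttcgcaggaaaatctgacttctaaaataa
Slc44a1 lower, chr4:53395183-53395393: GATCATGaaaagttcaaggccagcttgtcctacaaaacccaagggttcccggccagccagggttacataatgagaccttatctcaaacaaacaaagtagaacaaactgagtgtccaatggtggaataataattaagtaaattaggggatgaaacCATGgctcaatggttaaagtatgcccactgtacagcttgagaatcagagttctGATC
Slc45a3short lower, chr1:131939495-131939794: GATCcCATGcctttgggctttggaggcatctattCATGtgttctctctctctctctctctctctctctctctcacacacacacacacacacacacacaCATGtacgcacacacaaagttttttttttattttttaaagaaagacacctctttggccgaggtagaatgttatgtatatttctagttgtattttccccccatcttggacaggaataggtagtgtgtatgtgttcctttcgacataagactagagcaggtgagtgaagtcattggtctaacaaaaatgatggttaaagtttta
Slc45a3short higher, chr1:131988838-131989137: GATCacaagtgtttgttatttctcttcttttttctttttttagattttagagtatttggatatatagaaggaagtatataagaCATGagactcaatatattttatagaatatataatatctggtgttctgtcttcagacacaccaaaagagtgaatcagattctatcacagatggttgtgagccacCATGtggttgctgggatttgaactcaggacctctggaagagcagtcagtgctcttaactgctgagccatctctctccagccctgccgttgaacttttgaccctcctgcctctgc
Slc45a3long lower, chr1:131943707-131944006: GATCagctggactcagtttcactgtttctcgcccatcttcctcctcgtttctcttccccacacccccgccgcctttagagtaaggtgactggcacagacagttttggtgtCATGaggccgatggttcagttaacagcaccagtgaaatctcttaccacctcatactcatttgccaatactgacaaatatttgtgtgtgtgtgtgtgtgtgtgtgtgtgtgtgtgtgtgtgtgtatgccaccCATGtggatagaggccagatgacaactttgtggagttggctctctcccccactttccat

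The contact signal, a smoothed score deposited by the authors whose scale is not given, was higher in liver than in kidney at 519 of the 672 fragments (77.2%). By bait, liver was the higher tissue at 120 of 145 fragments for Mreg (82.8%), 101 of 128 for Pi3kap1 (78.9%), 122 of 127 for Slc44a1 (96.1%), 105 of 136 for Slc45a3short (77.2%) and 71 of 136 for Slc45a3long (52.2%). Over all fragments within 2 Mb the corresponding shares were 44.9% for Mreg, 42.5% for Pi3kap1, 35.8% for Slc44a1, 42.1% for Slc45a3short and 46.6% for Slc45a3long. The Slc45a3long share near the bait lay nearest to its own background, and those of the other 4 baits were all above theirs by more. Neighbouring fragments hold nearly the same value, since the authors smoothed the signal: the difference of a fragment and that of its neighbour correlated at r = 0.983 to 0.996 per bait. The fragments are therefore not independent, and their counts describe lengths of chromosome rather than separate observations.

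**Figure D1:**
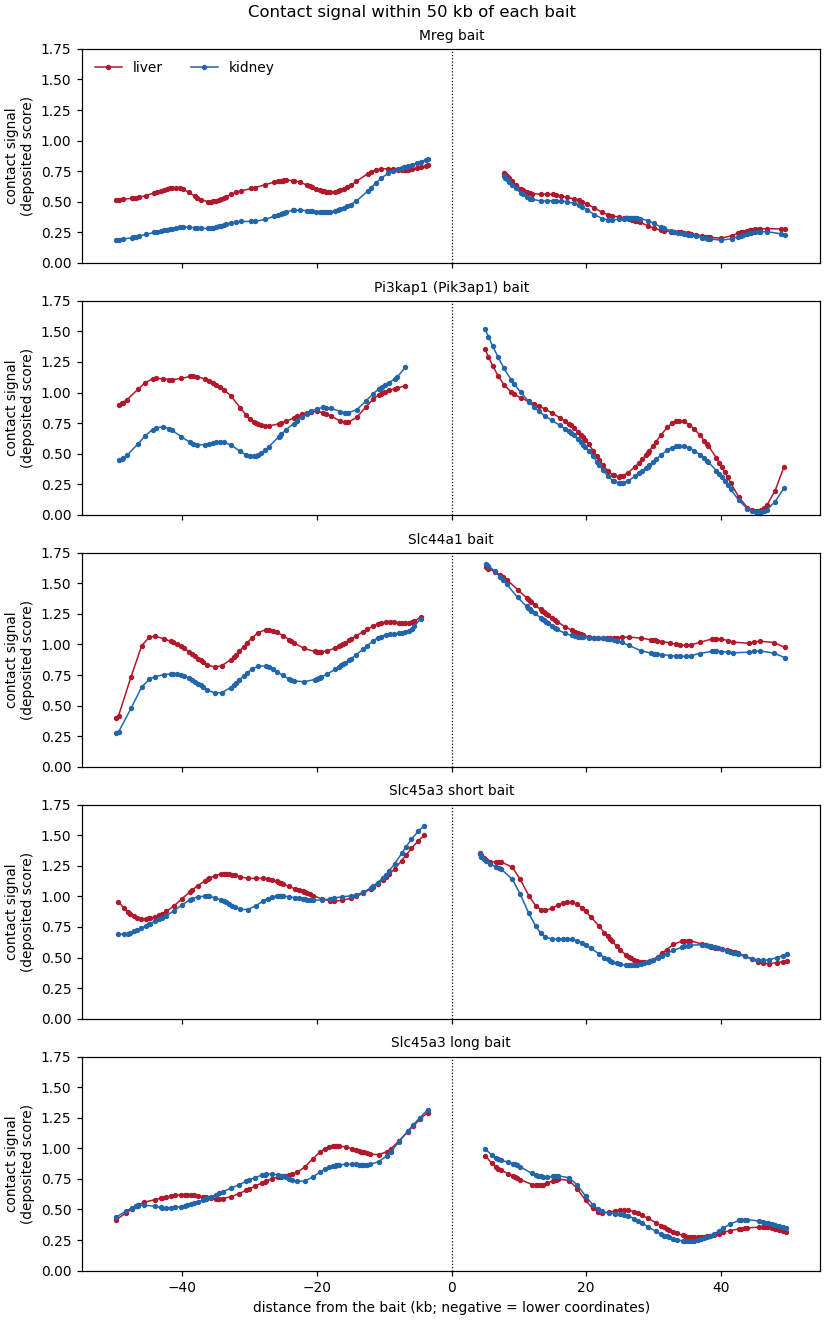
Contact signal (deposited score, vertical axis) of every listed fragment within 50 kb against distance from the bait (kb, negative toward lower coordinates), 1 panel per bait, liver in red and kidney in blue. Each point is 1 fragment and the 2 libraries of a tissue are combined, so there are no error bars; on the lower side liver runs above kidney throughout for Slc44a1, from -8.63 kb outward for Mreg and from -21.5 kb outward for Pi3kap1.

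A difference of 0.2 signal units was used to count fragments at which the tissues lay apart. How the signal of each bait was scaled is not given, so whether these counts can be compared between baits is unknown. The mean liver signal within 50 kb ran from 0.518 for Mreg to 1.07 for Slc44a1. The square root of the deposited variance, whose origin is not stated, had a median of 0.0245 to 0.0333 signal units per bait and tissue. The variance was equal in liver and kidney, within a relative tolerance of 1e-06, at 365 of the 672 fragments and differed by at most 3.26% elsewhere, so its square root serves here only as a scale and not as an error of either tissue. Liver exceeded kidney by at least 0.2 at 144 of the 672 fragments. These were 47 fragments of Mreg, 32 of Pi3kap1, 42 of Slc44a1, 23 of Slc45a3short and 0 of Slc45a3long. The background over all fragments within 2 Mb was 0.972% for Mreg, 2.41% for Pi3kap1, 0.995% for Slc44a1, 0.543% for Slc45a3short and 0% for Slc45a3long. Kidney exceeded liver by that much at 0 of the 672 fragments, and over 2 Mb at 0.169% for Pi3kap1, 0.115% for Slc45a3short and 0% for Mreg, Slc44a1 and Slc45a3long. Beyond 50 kb, 150 fragments had liver higher by 0.2 and 17 had kidney higher by 0.2. Of the 150, 111 were Pi3kap1 fragments between 50 and 200 kb. In that zone 27.1% of the Pi3kap1 fragments had liver higher by 0.2, against 25.0% within 50 kb. The shares at 50 to 200 kb and within 50 kb were 2.62% and 32.4% for Mreg, and 2.46% and 33.1% for Slc44a1. They were 2.16% and 16.9% for Slc45a3short, and 0% in both zones for Slc45a3long.

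The signal was low over most of the 2 Mb, so most fragments behind these background shares could not differ by 0.2. Either tissue reached 0.2 at 244 of 6070 fragments for Mreg, 939 of 5927 for Pi3kap1, 1075 of 5928 for Slc44a1, 937 of 6074 for Slc45a3short and 401 of 6071 for Slc45a3long. Of those fragments, liver was higher by 0.2 at 32.4% within 50 kb and 12.1% beyond it for Mreg, and 26.9% and 13.5% for Pi3kap1. These shares were 33.1% and 1.79% for Slc44a1, 16.9% and 1.25% for Slc45a3short, and 0% and 0% for Slc45a3long. How far the counts near the baits follow from the height of the signal there was not tested. The share with liver above kidney, which needs no minimum height, was followed over distance. The zone from 50 to 200 kb differed from bait to bait. At Pi3kap1 liver was the higher tissue at 87.8% of the 409 fragments in that zone, above its share of 78.9% within 50 kb. At Mreg the share in that zone was 57.0%, at Slc44a1 66.2%, at Slc45a3short 41.2% and at Slc45a3long 38.6%. Beyond 200 kb it was between 31.8% and 47.1% at all 5 baits.

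**Figure D2:**
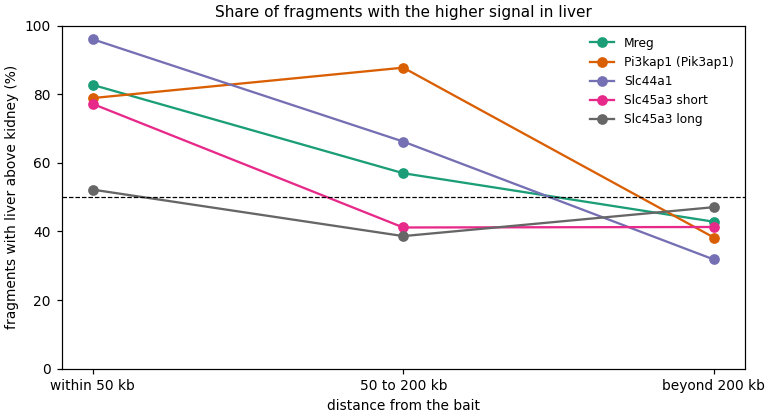
Percent of fragments with the higher signal in liver (vertical axis) in 3 zones of distance from the bait (horizontal axis), 1 line per bait, with the dashed line at equal shares. Within 50 kb the shares run from 52.2% (Slc45a3long) to 96.1% (Slc44a1), and beyond 200 kb from 31.8% to 47.1%.

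The difference was uneven between the sides of the bait. Of the 144 fragments with liver higher by 0.2, 129 lay on the lower side and 15 on the higher side. Slc45a3short was apart from this, with 11 lower and 12 higher. The mean difference on the lower side exceeded that on the higher side by 0.178 signal units for Mreg, 0.144 for Pi3kap1, 0.143 for Slc44a1, 0.0612 for Slc45a3long and 0.00181 for Slc45a3short. The side with the larger difference was the gene body for Mreg and Pik3ap1 but the upstream side for Slc44a1 and Slc45a3long, so within 50 kb it was the side of lower coordinates for genes on either strand. Within 25 kb the order of the sides turned for Pi3kap1 (-0.0406 lower, 0.00462 higher) and for Slc45a3short (-0.00206 lower, 0.166 higher). For Pi3kap1 the higher-side fragment just outside 50 kb differed by 0.221. Within 100 kb the means of that bait were 0.236 lower and 0.123 higher. On 9 of the 10 sides the mean was higher in liver, and the higher side of Slc45a3long was the exception. Within 25 kb the lower sides of Pi3kap1 and Slc45a3short also had the higher mean in kidney.

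**Figure D3:**
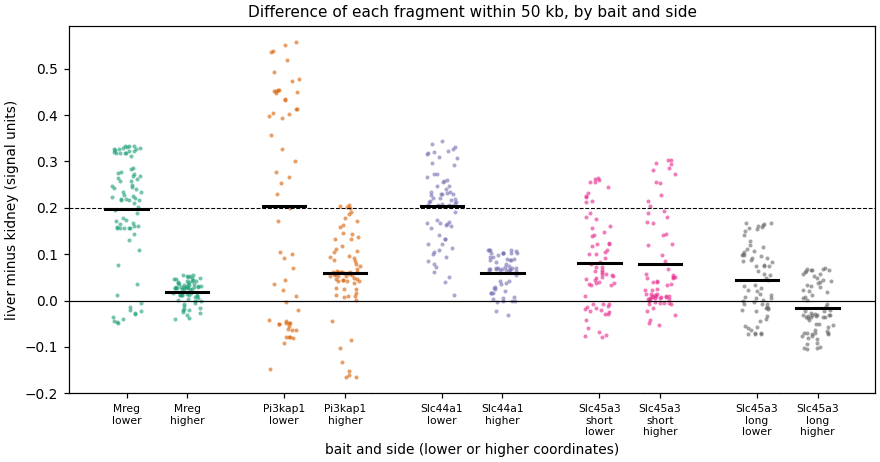
Liver minus kidney signal (vertical axis, signal units) of each fragment within 50 kb, by bait and side (horizontal axis), with the mean over fragments as a black bar and dashed lines at 0.2 signal units. Points are jittered sideways and are fragments, not replicates; the lower-side means of Mreg, Pi3kap1 and Slc44a1 lie between 0.197 and 0.204, the other 7 at or under 0.0804.

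For Mreg, the mean signal over the 79 fragments of the lower side, all within the gene, was 0.627 in liver and 0.429 in kidney, a difference of 0.197. Over the 66 fragments upstream it was 0.388 in liver and 0.369 in kidney, a difference of 0.0194. The tissues started together next to the bait. The fragment at -3.49 kb (chr1:72209047-72209306, intronic) had 0.798 in liver and 0.846 in kidney, and liver became the higher tissue between -7.92 and -8.63 kb. Further into the gene kidney decayed and liver levelled off. Between 5 and 10 kb the means were 0.766 in liver and 0.780 in kidney, between 20 and 30 kb 0.649 and 0.403, and between 40 and 50 kb 0.567 and 0.241. Liver had local peaks at -24.6 kb (0.676) and -41.0 kb (0.615), at which kidney held 0.419 and 0.287. Kidney had shallow rises nearby, to 0.433 at -22.5 kb from 0.414 at -18.9 kb, and to 0.293 at -39.955 kb from 0.282 at -36.3 kb. These rises were below the prominence required here for a local maximum.

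The highest difference within the Mreg window was at -41.8 kb (chr1:72170640-72171035), with 0.613 in liver and 0.279 in kidney, a difference of 0.334. Liver stayed at least 0.2 above kidney over 56 consecutive fragments from -21.1 to -58.4 kb, a stretch of 38.1 kb (chr1:72153728-72191832) of which 47 fragments are within 50 kb. It covers the end of the gene away from the promoter and runs past it. The 50 kb limit fell inside this stretch, since the fragment just inside it (-49.8 kb) differed by 0.326 and the one just outside (-50.3 kb) by 0.325. Upstream of Mreg the tissues lay close at every distance. The difference ran from -0.0400 at 29.1 kb, in the long noncoding RNA gene D230017M19Rik, to 0.0558 at 14.2 kb. Only the edge of that last fragment overlaps the small nuclear RNA gene Gm25360. At the outer edge of that side, on Pecr, which encodes a peroxisomal fatty acid enzyme, liver held 0.277 and kidney 0.227.

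For Pi3kap1, the 58 fragments of the lower side, all within Pik3ap1, had means of 0.924 in liver and 0.720 in kidney, a difference of 0.204. The 70 fragments upstream, which overlap no annotated gene, had means of 0.572 and 0.512, a difference of 0.0598. Next to this bait kidney was the higher tissue on both sides. At -6.87 kb (chr19:41376977-41378819, intronic) kidney held 1.21 and liver 1.06, and at 4.93 kb (chr19:41389492-41389895) kidney held 1.52 and liver 1.36. Liver became the higher tissue between -20.8 and -21.5 kb in the gene and between 10.3 and 11.5 kb upstream. Kidney exceeded liver by at least 0.1 at 7 of the 128 fragments of this bait within 50 kb, and at 280 of 5799 beyond it. Of the 7, 1 was on the lower side and 6 on the higher side, all of them nearer to the bait than these crossings.

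Further into Pik3ap1 the tissues parted. The mean over 10 to 20 kb was 0.862 in liver and 0.920 in kidney, and over 30 to 40 kb it was 1.04 in liver and 0.571 in kidney. The liver maximum at -38.4 kb reached 1.13, above the liver value at the fragment next to the bait (1.06). The highest difference of this window was at -37.8 kb (chr19:41346650-41347334), with 1.13 in liver and 0.574 in kidney, a difference of 0.557. Liver stayed at least 0.2 above kidney over 78 consecutive fragments from -28.4 to -82.3 kb, a stretch of 54.7 kb (chr19:41302030-41356727) of which 29 fragments are within 50 kb. On this lower side both tissues had maxima and minima in the same order along the gene, but at different places and heights. The outer maximum was 1.13 in liver at -38.4 kb and 0.720 in kidney at -42.9 kb. The minimum before it was 0.727 in liver at -27.2 kb and 0.481 in kidney at -29.3 kb. The correlation of the tissues over the 58 fragments was r = 0.116, against 0.853 to 0.989 on the other 9 sides. These are correlations over smoothed neighbours, given as a description. Upstream of Pik3ap1 both tissues had a peak at the same fragment, 33.7 kb from the bait (chr19:41418122-41418896), with 0.771 in liver and 0.566 in kidney, a difference of 0.205. On either side of it both were lower, with 0.314 in liver and 0.261 in kidney at 24.8 kb and 0.0318 and 0.0224 at 45.2 kb. The deeper minimum lies in a stretch where fragment lengths repeat. Listed fragments of 405, 491, 1908 and 661 bp run from 41.0 to 44.0 kb. The same lengths, with the same shares of G and C bases, recur from 46.4 to 49.4 kb. Whether the placing of reads in such DNA lowered the signal there was not tested.

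For Slc44a1, liver was the higher tissue at all 68 fragments upstream, where the means were 1.003 in liver and 0.7998 in kidney, a difference of 0.203. In the gene body the 59 fragments had means of 1.16 and 1.10, a difference of 0.0599. The tissues started close next to the bait, with 1.22 in liver and 1.21 in kidney at -4.59 kb, and with 1.63 and 1.66 at 5.13 kb, the highest signals of the window. Upstream both tissues followed 1 outline at different heights. Liver had maxima at -27.1 kb (1.12) and -44.1 kb (1.07), and kidney at -27.6 kb (0.825) and -41.5 kb (0.758). They shared a minimum at -35.2 kb, with 0.815 in liver and 0.603 in kidney.

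The highest difference at Slc44a1 was at -44.9 kb (chr4:53395183-53395393), with 1.06 in liver and 0.715 in kidney, a difference of 0.345. Liver stayed at least 0.2 above kidney over 42 consecutive fragments from -19.4 to -47.6 kb, a stretch of 28.9 kb (chr4:53391980-53420863) that holds the long noncoding RNA gene Gm12496 and its start site. At this bait the stretch ended inside the window, and the difference was 0.122 just inside the limit at -49.8 kb and 0.116 just outside it at -50.6 kb. In the Slc44a1 gene the signal levelled off in both tissues, at 1.02 in liver and 0.933 in kidney from 40 to 50 kb, and the difference did not pass 0.110, reached at 29.6 kb.

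**Figure D4:**
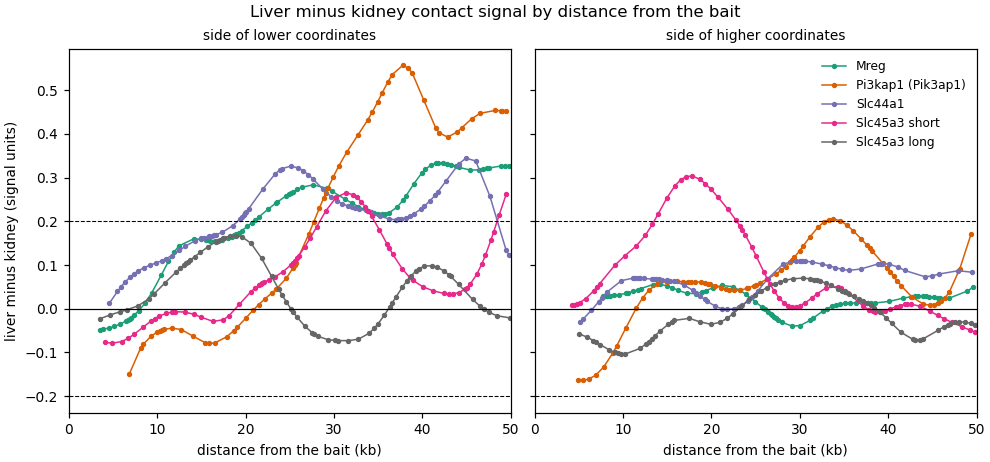
Liver minus kidney signal (vertical axis, signal units) against distance from the bait (kb), lower coordinates on the left and higher coordinates on the right, 1 line per bait with a point per fragment, dashed lines at 0.2 signal units. On the lower side Mreg, Pi3kap1, Slc44a1 and Slc45a3short pass 0.2, with maxima of 0.334, 0.557, 0.345 and 0.265, and on the higher side Slc45a3short reaches 0.303 and Pi3kap1 0.205.

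For Slc45a3short, the means were 1.06 in liver and 0.982 in kidney over the 68 lower fragments (difference 0.0804) and 0.729 and 0.650 over the 68 higher fragments (difference 0.0786). These side means depended on the window: within 25 kb the differences were -0.00206 and 0.166, and within 100 kb 0.0902 and 0.00246. The median on the higher side was 0.0350. Differences of 0.2 or more came in short stretches. Liver stayed at least 0.2 above kidney over 9 fragments from -29.1 to -34.3 kb (6.03 kb, chr1:131936903-131942936), a region with no annotated gene between Nucks1 and Slc45a3. The highest value there was at -31.4 kb (chr1:131939495-131940501), with 1.16 in liver and 0.894 in kidney, a difference of 0.265. Another stretch of 12 fragments ran from 13.9 to 22.7 kb (9.37 kb, chr1:131985102-131994470), downstream of Slc45a3 and inside the processed transcript Gm29103. Its highest value was at 17.8 kb (chr1:131988838-131989603), with 0.953 in liver and 0.649 in kidney, a difference of 0.303. Liver had a local maximum nearby, 0.955 at 17.2 kb, where kidney held 0.652 and was nearly level with its neighbours. The third stretch crossed the window's limit, from -48.7 to -56.9 kb over Nucks1, a gene for a nuclear DNA-binding protein. Only 2 of its 12 fragments are within 50 kb, and its highest difference, 0.343 at -52.6 kb, lies outside. Next to the bait kidney held the higher signal on the lower side, with 1.58 against 1.50 at -4.07 kb.

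Within the Slc45a3 gene itself, the order of the tissues turned at this bait. Of the 17 fragments that overlap Slc45a3, kidney was the higher tissue at 6, all below the bait, and liver at 11, all above it, with differences from -0.0790 to 0.143. The outer part of the higher side, over Elk4, which encodes an ETS-family transcription factor, had 0.506 in liver and 0.518 in kidney between 40 and 50 kb.

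For Slc45a3long, no fragment reached 0.2 in either direction. The means were 0.787 in liver and 0.743 in kidney on the lower side (difference 0.0441), and 0.488 and 0.505 on the higher side (difference -0.0171). Liver was the higher tissue between -7.87 and -25.1 kb and again between -36.3 and -46.6 kb, where the difference reached 0.0986 at -41.1 kb. The highest difference was at -18.9 kb (chr1:131943707-131944428), with 0.995 in liver against 0.828 in kidney, a difference of 0.167. Liver had a local maximum close by, 1.02 at -17.1 kb. Over the 22 fragments that overlap Slc45a3 kidney was the higher tissue, with a mean of 0.820 against 0.754. The lowest difference was there, at 10.2 kb (chr1:131973049-131973278), with 0.744 in liver and 0.848 in kidney, a difference of -0.104. The order of the tissues changed 4 times on the lower side and 2 times on the higher side of this bait.

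The Slc45a3 baits read 114 fragments in common outside the interval between them, 83.8% of the members of each. The same DNA can therefore be compared from baits 8444 bp apart. How each table was scaled is not given, so the order of the tissues can be read within each bait, and whether sizes can be compared between baits is unknown. The values below are each bait's own, on its own scale. Liver was the higher tissue at 101 of the 114 fragments from the short bait, at 64 from the long bait and at 61 from both. The sign was the same at 71 of 114. At the fragment with the highest difference below the short bait, the difference was 0.265 from the short bait and 0.0742 from the long bait (0.804 in liver, 0.730 in kidney). The highest fragment above the short bait gave 0.303 from the short bait and 0.0484 from the long bait (0.495 in liver, 0.446 in kidney). The highest fragment of the long bait gave 0.167 from the long bait and 0.161 from the short bait, where liver held 1.14 and kidney 0.982. At the lowest fragment of the long bait's lower side, on an exon of Nucks1, kidney was higher from the long bait (0.702 against 0.628) and liver from the short bait (0.980 against 0.930).

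**Figure D5:**
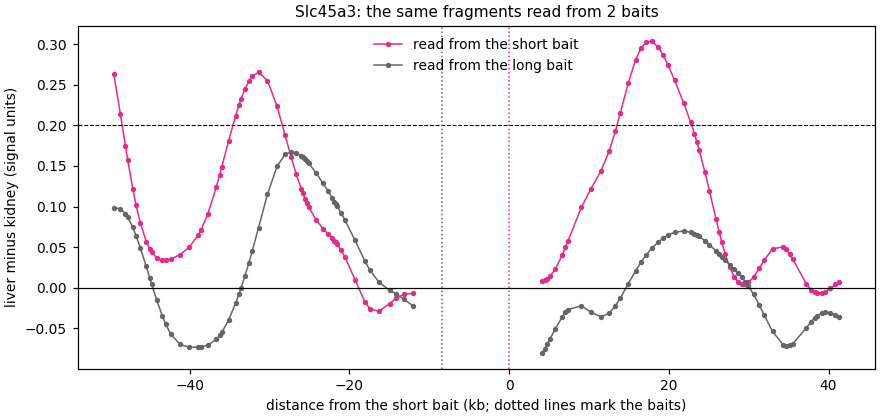
Liver minus kidney signal (vertical axis, signal units) of the 114 fragments seen from both Slc45a3 baits, against distance from the short bait (kb), with the short bait in pink, the long bait in grey, dotted lines at the baits and a dashed line at 0.2. The short bait has maxima of 0.265 and 0.303 at -31.4 and 17.8 kb, where the long bait gives 0.0742 and 0.0484, and the long bait has its maximum of 0.167 where the short bait gives 0.161.

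The profiles from the 2 baits followed each other more closely within a tissue than the differences did. Above both baits, the signal over the 57 shared fragments correlated between baits at r = 0.989 in liver and 0.979 in kidney. Below both baits it was 0.454 in liver and 0.831 in kidney. For the liver minus kidney difference the correlation was 0.643 above and 0.249 below. These describe smoothed neighbours that also share the decay with distance.

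The fragments with a difference of at least 0.2 were sorted by annotation, which had no part in their choice. For Mreg all 47 overlapped the bait's own gene, as did 79 of all 145 fragments. For Pi3kap1 it was 29 of 32, against 58 of all 128. For Slc44a1 37 of 42 overlapped no gene, against 63 of all 127, and the other 5 were the 5 fragments on the noncoding gene Gm12496. For Slc45a3short 14 of 23 overlapped another gene, nearly the same share as 80 of all 136. A further 9 of 23 overlapped none, against 39 of 136, and 0 overlapped Slc45a3, against 17 of 136. The mean difference over fragments in the bait's own gene was 0.197 for Mreg and 0.204 for Pi3kap1 against 0.0599 for Slc44a1, 0.0105 for Slc45a3short and -0.0667 for Slc45a3long. These classes are almost the same as the sides for Mreg, Pi3kap1 and Slc44a1, so side and gene overlap cannot be told apart there.

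The 50 kb limit fell on a smooth signal at the other 8 sides as well as on the lower sides of Mreg and Slc44a1. Fragments just inside and just outside it held similar differences, except on the higher side of Pi3kap1. On that side the difference was 0.171 just inside and 0.221 just outside, so it passed 0.2 at the limit. On the lower side of Pi3kap1 it was 0.452 and 0.450. On the lower side of Slc45a3short it was 0.263 and 0.292, and on its higher side -0.0537 and -0.0587. For Slc45a3long it was -0.0210 and -0.0190 on the lower side and -0.0363 and -0.0399 on the higher side. On the higher side it was 0.0494 and 0.0564 for Mreg, and 0.0833 and 0.0804 for Slc44a1.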

How the data were processed

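The authors deposited, per the file headers, a contact signal for each tissue and restriction fragment within 2 Mb of a bait, which is a smoothed score of unstated scale, together with a variance score for it and the distance from the bait in bp. The 4C-seq build named in the submitters' processing notes is mm9. The mapper, smoothing and scaling are not given in the sources used here. The authors' Z-scores were not used. For the kidney RNA, the authors deposited TPM per transcript, made with kallisto 0.42.4 on GRCm38 per the submitters' processing notes.

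Signals were used as deposited. The difference of liver minus kidney was averaged over fragments by bait and side, and counted at 0.2 signal units. Because a score of unknown scale has no known zero, differences are given and no ratios. A test over libraries had been planned for values per library, and since the tables combine them the results are descriptions without p-values. Fragment positions were found by aligning the list of distances with the GATC sites of GRCm38, whose gene models gave the annotation, a procedure checked on simulated sequences (the origin was found in 5 of 5). No mm9 coordinates are printed. Fragments named are, for each bait and side, those with the highest and lowest difference, the nearest to the bait and those just inside and outside 50 kb. Local maxima and minima had a prominence of at least 0.03. Members, thresholds and lists were chosen with earlier results of these data known. Alternatives were other windows, thresholds, weightings and centring. Python 3.11.15 with numpy 2.4.6, pandas 2.3.3 and scipy 1.17.1 was used.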

Additional observations from a re-analysis of the deposited data

How the results depend on the processing

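No paired analysis was possible because the libraries of liver and kidney, which share letters in the labels, are already combined in the tables. For the same reason no library could be left out in turn. Of the 80 recomputed mean differences by bait and side, 69 moved by less than the bait's yardstick, the median over its fragments of the square root of the summed deposited variances of both tissues (0.0347 to 0.0471), 9 moved by more and 2 changed sign. With a 25 kb limit the mean changed sign on the lower side of Pi3kap1 (-0.0406) and of Slc45a3short (-0.00206), where the fragments with liver higher by 0.2 lie further out. The same limit gave 0.111 on the lower side of Mreg, 0.157 on that of Slc44a1, 0.0896 on that of Slc45a3long, and on the higher sides 0.00462 for Pi3kap1, 0.166 for Slc45a3short and -0.0527 for Slc45a3long. With a 100 kb limit the higher side gave 0.123 for Pi3kap1 and 0.00246 for Slc45a3short. Leaving out fragments closer than 10 kb, a choice made after seeing the data, gave 0.241 on the lower side of Mreg. Leaving out those closer than 5 kb, medians, 5 kb bins, 1 fragment each 5 kb and centring on fragments beyond 200 kb kept all 10 means within that yardstick, which is wide for the small means: the median gave 0.0350 on the higher side of Slc45a3short and -0.0302 on that of Slc45a3long, and 5 kb bins gave 0.0352 on that of Pi3kap1. Other moves beyond 1.5 times within the yardstick were on the higher sides of Mreg (0.0394 at 25 kb, 0.0116 at 100 kb), Slc44a1 (0.0360 at 25 kb) and Slc45a3long (-0.0286 at 100 kb, -0.00690 without fragments closer than 10 kb). Of 100 recomputed counts 86 stayed within 1.5 times. At a threshold of 0.1, liver was higher at 19 fragments on the higher side of Pi3kap1, 11 on that of Slc44a1, 21 on that of Slc45a3short, 26 on the lower side of Slc45a3short and 17 on that of Slc45a3long. Kidney was then higher at 1 lower and 6 higher fragments of Pi3kap1 and 3 higher fragments of Slc45a3long. Beyond 50 kb that was so at 280 of 5799 Pi3kap1 fragments and 4 of 5935 Slc45a3long fragments. At 0.3, liver was higher at 18 lower fragments of Mreg, 10 of Slc44a1 and 0 of Slc45a3short, and at 0 higher fragments of Pi3kap1 and 2 of Slc45a3short. Centring gave 6 on the higher side of Pi3kap1. It moved the share of fragments with liver above by at most 3.68 percentage points. Unknown depth and combined libraries limit every value: no difference here can be set against replicate spread.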

Other observations

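The kidney RNA of the genes in these windows gives the expression behind the baits in that tissue, but in 129SV mice under night-restricted feeding, a different strain and regimen from the 4C-seq mice, and no liver RNA was analysed here. Across the 12 wild-type kidney libraries, Mreg ranged from 1.11 to 2.42 TPM (a transcript abundance scaled to the library's total) with a median of 1.44, and Pik3ap1 from 0.399 to 0.892 with a median of 0.552. Slc44a1 ranged from 12.3 to 14.9 with a median of 13.4, and Slc45a3 from 7.06 to 13.1 with a median of 10.3. The lowest Slc44a1 library was thus above every Mreg and Pik3ap1 library. These libraries were taken around the day, whereas the 4C-seq tissue of each bait came from a single time. At zeitgeber time 20, libraries A and B had 1.61 and 2.02 TPM for Mreg and 12.9 and 13.9 for Slc44a1. For Slc45a3 they had 12.2 and 11.6. At zeitgeber time 8, libraries A and B had 0.583 and 0.561 TPM for Pik3ap1. Among the transcripts of Slc45a3, the one that starts by the long bait, Slc45a3-202, had a median of 7.25 TPM, and the one nearest to the short bait, Slc45a3-201, had 2.10, as divided by the authors' transcript estimates. Of the neighbours, Pecr had a median of 302 TPM (273 to 348), Elk4 18.4 (14.0 to 24.8) and Nucks1 13.4 (12.0 to 14.7).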
